A study of Homo sapiens with 6 samples.

Results

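Long noncoding RNAs named by a LINC number and antisense or intronic RNAs named after a neighbouring gene were followed across 3 related human lung cancer cell lines. A gene was taken when its symbol began with LINC and digits, or ended in -AS1, -AS2, -AS3 or -IT1, lay on chromosomes 1 to 22, and reached 1 TPM in at least 2 of the 6 libraries. TPM, a share of all transcripts of a library, is an abundance scaled for transcript length and library size. Of 1902 symbols of that form, 435 were taken, among 14195 genes that passed the same abundance filter and 26485 listed in all. They comprised 277 antisense RNAs, 150 LINC genes and 8 intronic transcripts. The remaining symbols were either below the filter, 887 of them listed at 0 in every library, or, for 15, above it but on chromosome X, Y or another sequence.

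The lines were PC9, a lung adenocarcinoma line with an activating EGFR mutation, and the sublines derived from it, PC9-BrM4 and PC9-AMG, each in ordinary culture with no treatment named and each with 2 libraries. Earlier work describes PC9-BrM4 as selected for spread to the brain, which the labels do not state, and they do not explain the letters AMG. Polyadenylated RNA was sequenced with a strand-preserving kit. The tables for PC9-AMG carry EMG in their names, and were assigned to that line by the sample records. The labels do not say that the 2 libraries of a line were grown apart. The p-values therefore reflect the spread of these samples alone, and that spread may be technical.

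Long noncoding RNAs are transcribed, capped and often spliced like messenger RNAs but are not known to be translated, or only into very short peptides. Many stay in the nucleus, near the place where they are made, and many are far less abundant than messenger RNAs. Antisense RNAs fall into classes by position. Some start beside the promoter of a protein-coding gene and run away from it, so that the pair shares a promoter region; others lie across the body of the gene on the other strand. LINC is the naming root for intergenic RNAs, and some of these genes were later found to hold a small protein-coding frame.

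Among antisense and intronic RNAs, 144 were head to head with the gene they are named for, which here means opposite strands with start sites within 1000 bases. Their median distance between start sites was 198.5 bases. Another 117 overlapped that gene on the opposite strand in some other way, 13 lay apart from it and 9 were on its own strand, among them the 8 intronic transcripts. For 2 the named gene was not listed. The promoters of 4 head-to-head members that the results below turn on are printed here. Each sequence is 300 bases from RefSeq on build GRCh38.p14, 5′ to 3′ on the strand of the member, from 250 bases before its start to 50 bases from it on. Capitals mark CG dinucleotides. GAS6-AS2 is at chr13:113863927-113864226 on the plus strand, and the start of GAS6 lies in that window, 74 bases from its own. NIPBL-AS1 is at chr5:36876645-36876944 on the minus strand, 65 bases from the start of NIPBL. NNT-AS1 is at chr5:43603181-43603480, minus strand, and RASSF8-AS1 at chr12:25959393-25959692, minus strand. The starts of NNT and RASSF8 do not lie in these windows.
GAS6-AS2: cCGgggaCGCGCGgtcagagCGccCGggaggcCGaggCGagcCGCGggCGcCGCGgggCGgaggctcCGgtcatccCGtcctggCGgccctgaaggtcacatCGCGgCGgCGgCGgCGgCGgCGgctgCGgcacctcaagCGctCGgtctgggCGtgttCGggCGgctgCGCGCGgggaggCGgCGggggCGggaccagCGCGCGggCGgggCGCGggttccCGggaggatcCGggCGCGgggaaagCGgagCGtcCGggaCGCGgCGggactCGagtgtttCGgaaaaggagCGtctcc
NIPBL-AS1: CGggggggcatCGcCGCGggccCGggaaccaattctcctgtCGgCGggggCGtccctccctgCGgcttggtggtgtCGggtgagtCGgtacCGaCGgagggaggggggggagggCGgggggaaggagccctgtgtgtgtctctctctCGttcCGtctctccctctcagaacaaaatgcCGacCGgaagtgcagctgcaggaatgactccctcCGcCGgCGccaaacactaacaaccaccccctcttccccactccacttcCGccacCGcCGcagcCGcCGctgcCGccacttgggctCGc
NNT-AS1: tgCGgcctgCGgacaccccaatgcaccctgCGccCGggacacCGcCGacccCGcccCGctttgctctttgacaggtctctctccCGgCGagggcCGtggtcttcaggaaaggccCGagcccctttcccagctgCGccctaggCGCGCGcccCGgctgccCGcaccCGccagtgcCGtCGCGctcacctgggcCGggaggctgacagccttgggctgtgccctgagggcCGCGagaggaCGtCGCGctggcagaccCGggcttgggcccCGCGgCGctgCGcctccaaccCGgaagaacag
RASSF8-AS1: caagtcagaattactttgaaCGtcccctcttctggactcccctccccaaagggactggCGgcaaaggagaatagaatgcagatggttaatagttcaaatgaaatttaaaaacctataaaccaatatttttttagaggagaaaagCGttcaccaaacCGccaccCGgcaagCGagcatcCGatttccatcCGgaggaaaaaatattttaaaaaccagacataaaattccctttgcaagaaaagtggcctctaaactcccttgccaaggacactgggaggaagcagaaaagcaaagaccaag
The first of these windows held 56 CG dinucleotides, and those of NIPBL-AS1, NNT-AS1 and RASSF8-AS1 held 28, 34 and 8. LINC01234 (chr12:113773634-113773933, minus strand) and LINC01269 (chr14:70698448-70698747, plus strand), 2 intergenic members with large differences between the lines, are shown for contrast.
LINC01234: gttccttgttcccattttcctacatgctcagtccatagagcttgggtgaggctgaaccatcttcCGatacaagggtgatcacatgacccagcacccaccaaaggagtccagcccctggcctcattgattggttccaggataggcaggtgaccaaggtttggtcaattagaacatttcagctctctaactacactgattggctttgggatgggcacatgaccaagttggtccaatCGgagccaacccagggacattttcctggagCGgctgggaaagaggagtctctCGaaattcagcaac
LINC01269: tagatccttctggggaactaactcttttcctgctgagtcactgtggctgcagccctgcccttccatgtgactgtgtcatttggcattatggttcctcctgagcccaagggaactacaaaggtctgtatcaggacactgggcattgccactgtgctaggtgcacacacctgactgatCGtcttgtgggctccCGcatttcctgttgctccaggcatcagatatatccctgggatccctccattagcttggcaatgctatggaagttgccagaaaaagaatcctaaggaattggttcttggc
These windows held 4 and 2 CG dinucleotides.

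A contrast in CpG content was also seen over the classes, with exceptions within them. RefSeq promoters were matched by symbol for 336 members, and for 313 the start lay within 50 bases of the start in the deposited tables. A window was called CpG-rich when its GC content was at least 50% and its ratio of observed to expected CpG at least 0.6. This was so for 93 of 106 head-to-head members (87.7%), 56 of 87 overlapping members (64.4%) and 45 of 105 LINC members (42.9%). Over all 27305 promoters in the table it was 46.9%, and over 9615 other listed genes averaging 1 TPM or more it was 80.4%. The RASSF8-AS1 window did not meet the rule, with a GC content of 43.0% and a ratio of 0.581. The letters GGGCGG, the core of the GC box bound by SP and KLF factors, occurred on either strand in 70.8% of head-to-head, 57.5% of overlapping and 41.9% of LINC windows, against 44.6% of all promoters. TGANTCA, the AP-1 motif, was found in 0.943%, 6.90% and 12.4% of these windows and in 7.76% of all promoters, and one of the LINC windows with it was that of LINC01269. TATAAA, the core of a TATA box, was found in 5.66%, 5.75% and 12.4% and in 12.0% of all promoters, and occurred in the RASSF8-AS1 window. In the 9615 other listed genes averaging 1 TPM or more, the shares were 70.5% for GGGCGG, 4.68% for TGANTCA and 5.42% for TATAAA. The GGGCGG and TATAAA shares of head-to-head windows were thus near those of other expressed genes. A match is a stretch of letters and not a shown binding site. The plot of CpG content shows the spread within each class.

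**Figure D1:**
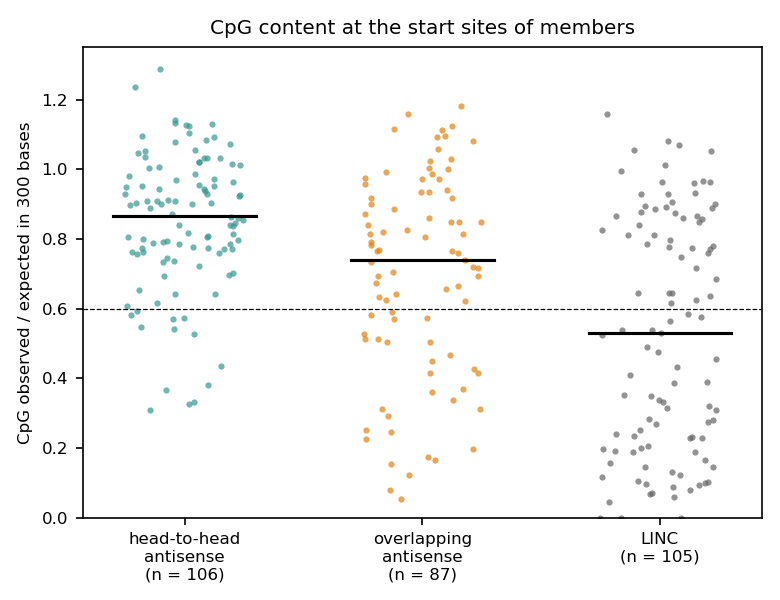
Ratio of observed to expected CpG dinucleotides (vertical axis, no unit) in the 300 bases at the start of each member, by class. Each point is a member, horizontal position within a class is random, solid bars are medians and the dashed line is the 0.6 used to call a window CpG-rich. The medians are 0.866 for 106 head-to-head antisense members, 0.740 for 87 overlapping ones and 0.530 for 105 LINC members, and the LINC points reach down to 0.

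The aligned sequence behind the libraries, estimated from the deposited coverage, was between 2.66 and 4.39 gigabases. Across members, which are not independent replicates, log2(TPM + 1) correlated at 0.982 to 0.989 for libraries of one line and at 0.902 to 0.945 for libraries of different lines. The epithelial markers EPCAM, CDH1, CLDN4 and 4 keratins were all present in every library and summed to between 9738 and 15075 TPM. The 4 lung lineage markers summed to at most 0.887 TPM, with 2 to 4 of them listed at 0, so that the lung origin given by the labels is not seen in these genes. Sums for 3 astrocyte and 3 neuron markers stayed at or under 1.09 TPM in every library, and 5 leukocyte markers summed to between 40.8 and 50.3 TPM, of which 39.9 to 49.2 came from CD68. Fibroblast markers, 4 in all, summed to between 3.68 and 5.05 TPM in PC9 and PC9-BrM4 and to 14.6 and 15.0 in PC9-AMG, nearly all from COL1A1, and their part in the results was not tested.

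Members were scarce. Their median abundance was 2.97 TPM, where the median of all tested genes was 20.9 TPM. Only 3 had a mean of at least 100 TPM, 70 lay between 10 and 100, 67 between 5 and 10, 248 between 1 and 5, and 47 below 1. They summed to 4296 and 4260 TPM in PC9, to 3989 and 4008 in PC9-BrM4 and to 3834 and 3775 in PC9-AMG, which is 0.377% to 0.430% of a library. All 4 libraries of the sublines were below both of PC9 in this sum. The count of members at 1 TPM or more did not follow that order, with 382 and 390 in PC9, while PC9-BrM4 had 366 and 379 and PC9-AMG had 380 and 375.

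A single member took 21.4% to 25.5% of the summed abundance. This was LRRC75A-AS1, which RefSeq now names SNHG29, a host gene of small nucleolar RNAs. It stood at 1088 and 1086 TPM in PC9, at 977 and 913 in PC9-BrM4 and at 822 and 851 in PC9-AMG. There was no overlap between lines, and limma called it lower in PC9-BrM4 than in PC9 (log2 fold change -0.20, SE 0.05, adjusted p = 0.0084) and lower in PC9-AMG (log2 fold change -0.38, SE 0.05, adjusted p = 3.6e-04). Centring each library on its median ended the first of these calls. Without this gene the members summed to 3208 and 3174 TPM in PC9, to 3011 and 3094 in PC9-BrM4 and to 3012 and 2924 in PC9-AMG, so that both sublines were still below PC9 but overlapped each other.

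LINC00493, which RefSeq lists as the protein-coding gene SMIM26 for a small mitochondrial protein, followed at 159 and 155 TPM in PC9, at 161 and 148 in PC9-BrM4 and at 146 and 138 in PC9-AMG. LINC00657, or NORAD, a cytoplasmic RNA that binds Pumilio proteins, stood at 183 and 169, 140.0 and 148 and 129.8 and 115 TPM in the same order. NORAD was highest in PC9 and lowest in PC9-AMG with no overlap, and limma called it lower in PC9-AMG than in PC9 (log2 fold change -0.52, SE 0.07, adjusted p = 5.8e-04). FGD5-AS1 was at 97.9 and 92.7 TPM in PC9 and 90.0 and 90.4 in PC9-BrM4, and lower, at 67.0 and 65.7, in PC9-AMG (adjusted p = 1.1e-04 against PC9 by limma). LINC00152, or CYTOR, was at 92.2 and 88.5 TPM in PC9 and between 72.8 and 75.2 TPM in all 4 libraries of the sublines (adjusted p = 0.0021 and 0.0017 by limma). These 4 abundant RNAs differed between lines by less than 1 log2 unit.

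Among the most abundant members 2 were higher in the sublines. LINC00942 (chr12:1500491-1504424, plus strand) was at 50.1 and 47.1 TPM in PC9, at 77.4 and 83.2 in PC9-BrM4 and at 93.5 and 93.7 in PC9-AMG, so every library of a subline was above both of PC9 (log2 fold changes 0.71 and 0.93, SE 0.06 each, adjusted p = 7.3e-05 and 2.0e-05 by limma). PAX8-AS1, antisense to the thyroid and kidney transcription factor gene PAX8, was at 59.9 and 61.1, 70.5 and 74.5 and 90.5 and 87.1 TPM, in steps that did not overlap (adjusted p = 0.0045 and 1.1e-04 against PC9 by limma). AFAP1-AS1, studied in several carcinomas, ranged from 57.8 to 78.9 TPM over the 6 libraries and was not called against PC9 in either subline. FAM83H-AS1 was level between PC9 (63.4 and 65.4 TPM) and PC9-BrM4 (64.0 and 65.2) and lower in PC9-AMG (51.6 and 51.7, adjusted p = 0.001 against PC9 by limma). LINC00998, which RefSeq lists as the protein-coding SMIM30, completed the 10 and is described with the small-frame genes.

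In PC9-BrM4, 57 members were higher and 96 lower than in PC9 at an adjusted p under 0.05 by limma. Over all 14195 tested genes 23.4% were called higher and 23.1% lower, so that the share of members called lower (22.1%) was near the background and the share called higher (13.1%) was below it. Scarce genes as a whole were close to the members in this: of the 3148 tested genes with a mean under 5 TPM, 38.8% were called in either direction, 13.1% higher and 25.7% lower. Of the 295 members under 5 TPM, 30.8% were called. The 140 members averaging at least 5 TPM were 17.1% higher and 27.1% lower, against 26.4% and 22.4% of tested genes of that abundance. The median log2 fold change of members was -0.05. The LINC genes split into 18 higher and 47 lower of 150, the head-to-head antisense RNAs into 19 higher and 15 lower of 144, and the overlapping ones into 14 higher and 30 lower of 117. A change of at least 1 log2 unit was called for 9 members higher and 14 lower, and 5 of the 9 had reached 1 TPM in a single line, so that their high line brought them in. Of all 14195 tested genes, 255 were called higher and 286 lower by that much. The split between directions depended on the scaling. Quantile normalization gave 77 higher and 83 lower, with a median of members of 0.0057, where TPM as deposited gave 57 and 96.

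The leading fall in PC9-BrM4 was that of LINC01269, an intergenic RNA on chromosome 14 whose promoter is printed above. It stood at 10.7 and 10.5 TPM in PC9, at 1.5 and 1.43 in PC9-BrM4 and at 11.6 and 9.92 in PC9-AMG. Both PC9-BrM4 libraries were far below the other 4, which overlapped each other (log2 fold change -2.23 against PC9, SE 0.10, adjusted p = 6.4e-06 by limma). LINC01234, an RNA studied in several carcinomas, also with its promoter printed above, is more abundant than the median member. It was at 30.8 and 31.1 TPM in PC9, at 10.01 and 8.97 in PC9-BrM4 and at 26.9 and 26.1 in PC9-AMG. Here too PC9-BrM4 was far below the rest (log2 fold change -1.61 against PC9, SE 0.07, adjusted p = 6.4e-06 by limma). PC9-AMG was also called lower than PC9 without overlap, by a smaller step. That call was lost when any library of PC9 or PC9-AMG was left out.

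LINC00601 (chr10:126413869-126421879, minus strand) was at 6.54 and 8.38 TPM in PC9, at 1.61 and 0.812 in PC9-BrM4 and at 7.57 and 6.62 in PC9-AMG. LINC01504 showed the same order, at 4.15 and 3.71, 1.13 and 1.47 and 3.38 and 3.24 TPM. In both, the PC9-BrM4 libraries lay below all others (log2 fold changes -1.95 and -1.10 against PC9). LINC01559 was at 4.72 and 4.95 TPM in PC9, at 0.416 and 0.520 in PC9-BrM4 and at 1.62 and 1.52 in PC9-AMG. WDR86-AS1 was at 2.16 and 2.19, 0.138 and 0.144 and 0.836 and 0.818 TPM, and ZNF503-AS1 at 3.37 and 3.72, 0.853 and 0.847 and 2.09 and 2.29. These 3 were highest in PC9, lowest in PC9-BrM4 and between in PC9-AMG with no overlap. WDR86-AS1 reached 1 TPM in PC9 alone, so its level there brought it in. HS1BP3-IT1, an intronic transcript, was at 2.21 and 1.94 TPM in PC9 and at 0 and 0.249 in PC9-BrM4. The highest adjusted p among the 8 leading falls was that of HS1BP3-IT1 (5.6e-04 by limma).

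The rises in PC9-BrM4 were led by LINC00162, which RefSeq names PICSAR, an RNA described in squamous carcinoma of the skin, at chr21:44999208-45004727, minus strand in the deposited tables (build hg38). It was listed at 0 in both PC9 and both PC9-AMG libraries and stood at 3.73 and 3.92 TPM in PC9-BrM4 (adjusted p = 1.1e-05 against PC9 by limma). Since the other groups are at 0, no fold is given. LINC00162 reached 1 TPM in PC9-BrM4 alone, so its level there brought it in and its call is no support. ELFN1-AS1, antisense to a synaptic adhesion protein gene, was at 8.18 and 5.07 TPM in PC9, at 18 and 17.2 in PC9-BrM4 and at 6.93 and 5.70 in PC9-AMG (log2 fold change 1.31, SE 0.18, adjusted p = 9.7e-04 by limma, the highest among the 8 leading rises). The PC9-BrM4 libraries were close to each other and above the rest, while the PC9 libraries differed from each other more than any other pair. ELFN1 itself was below the abundance filter.

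LINC01127 was at 2.32 and 2.57 TPM in PC9, at 6.91 and 7.36 in PC9-BrM4 and at 2.57 and 2.45 in PC9-AMG. SLCO4A1-AS1, across an organic anion transporter gene, was at 0.978 and 0.737, 3.36 and 3.44 and 0.722 and 0.628 TPM. PYCARD-AS1, beside the gene of an inflammasome adaptor, was at 0.211 and 0.367, 2.07 and 2.01 and 0.310 and 0.612 TPM. For all 3 the PC9-BrM4 libraries were high and the other 4 lay close together below them, with log2 fold changes of 1.24, 1.25 and 1.24 against PC9. SLCO4A1-AS1 and PYCARD-AS1 reached 1 TPM in PC9-BrM4 alone, so their high level there brought them in. MCF2L-AS1 was at 1.82 and 2.01 TPM in PC9, at 6.19 and 5.10 in PC9-BrM4 and at 1.13 and 1.21 in PC9-AMG. SLC16A1-AS1, next to the lactate transporter gene, was at 1.25 and 0.867, 2.91 and 2.95 and 3.58 and 3.67 TPM, so it was high in both sublines. PRRT3-AS1 was at 4.11 and 4.39 TPM in PC9 and 8.28 and 9.68 in PC9-BrM4. The plot of values by library shows these members side by side with those of the other comparisons.

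**Figure D2:**
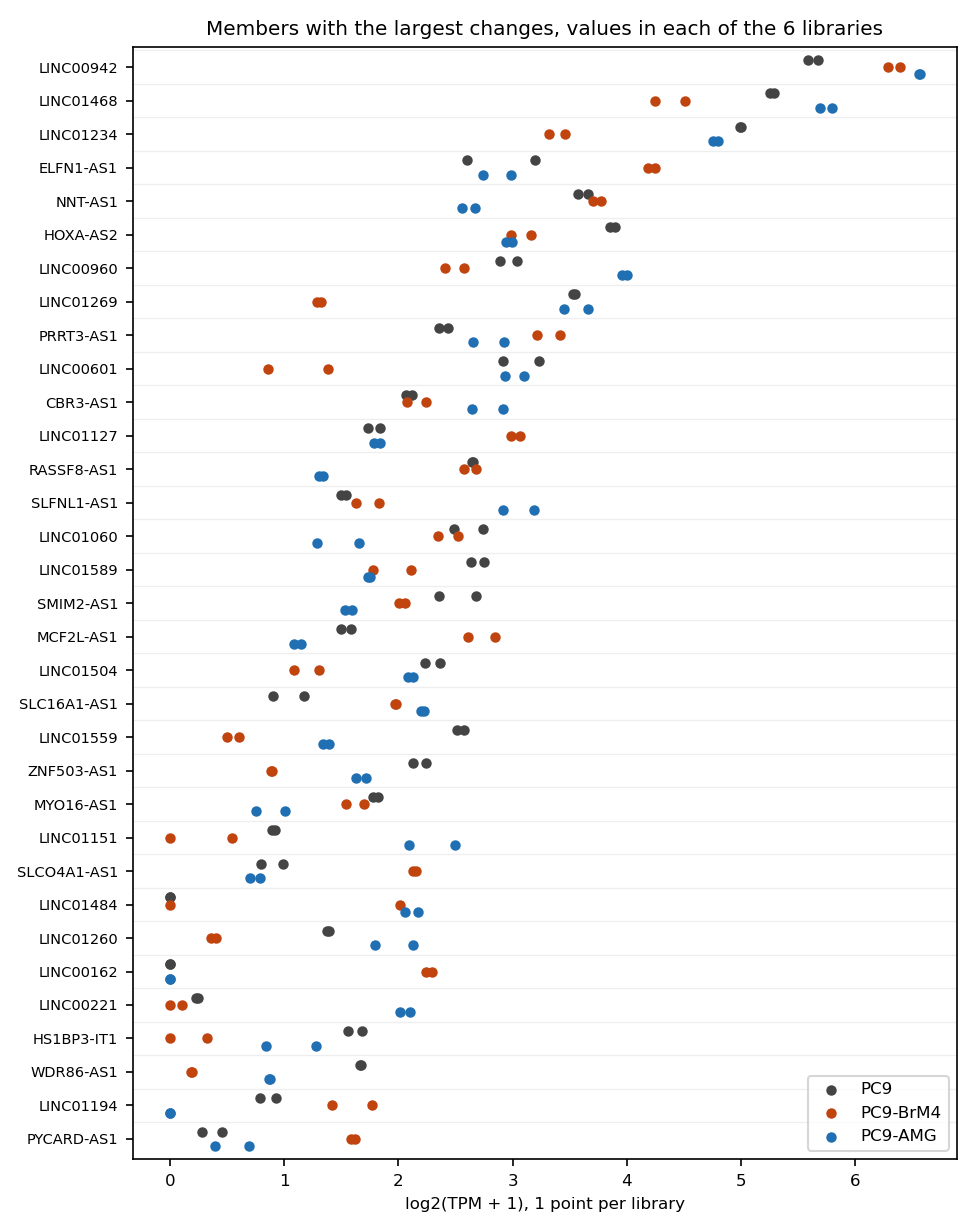
Abundance of the members with the largest called changes, as log2(TPM + 1) on the horizontal axis, 1 point per library, 2 per line, ordered by mean TPM. LINC01269, LINC00601 and LINC01234 have their PC9-BrM4 points far to the left of the rest, LINC00162 has its PC9-BrM4 points alone away from 0, and LINC01484 has 1 of 2 PC9-BrM4 points at 0.

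In PC9-AMG, 57 members were higher and 118 lower than in PC9 by limma. Over all tested genes 27.8% were higher and 27.7% lower, and of those under 5 TPM 46.0% were called in either direction, 21.8% higher and 24.3% lower. Of the members 27.1% were lower, near the background, and 13.1% higher, below it. Among the 295 members under 5 TPM, 11.9% were higher and 22% lower. The 140 members averaging at least 5 TPM were 15.7% higher and 37.9% lower. Tested genes of that abundance were 29.5% higher and 28.7% lower, so the share near the background joins 2 groups that differ. The LINC genes gave 19 higher and 46 lower, the head-to-head antisense RNAs 16 and 37, and the overlapping ones 19 and 28. The median log2 fold change of members was -0.09. By at least 1 log2 unit 397 of all 14195 tested genes were called higher and 236 lower, and of the members 7 and 5. These counts rest on few libraries: without PC9-AMG replicate 1 they were 30 higher and 78 lower, and without PC9-AMG replicate 2 they were 36 and 78. Both comparisons with PC9 share its 2 libraries.

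NNT-AS1 and RASSF8-AS1, with promoters printed above, were among the leading falls. NNT-AS1 lies head to head with NNT, the gene of a mitochondrial enzyme that makes NADPH, on chromosome 5. NNT-AS1 stood at 11.6 and 10.9 TPM in PC9, at 12.0 and 12.7 in PC9-BrM4 and at 5.38 and 4.87 in PC9-AMG (log2 fold change -1.0 for PC9-AMG against PC9, SE 0.08, adjusted p = 7.8e-05 by limma). RASSF8-AS1 stood at 5.25 and 5.30, 5.42 and 4.94 and 1.46 and 1.52 TPM (log2 fold change -1.33, SE 0.09, adjusted p = 4.1e-05 by limma). In both, the PC9-AMG libraries were low and PC9-BrM4 was not called against PC9.

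LINC01060 showed the same shape, at 5.67 and 4.62 TPM in PC9, at 4.73 and 4.08 in PC9-BrM4 and at 1.44 and 2.14 in PC9-AMG. So did MYO16-AS1, at 2.42 and 2.53, 2.25 and 1.91 and 1.01 and 0.686 TPM. HOXA-AS2, from the HOXA homeobox cluster, was at 13.5 and 13.9 TPM in PC9, at 7.92 and 6.92 in PC9-BrM4 and at 6.99 and 6.68 in PC9-AMG, so that both sublines were near one level below PC9 (log2 fold changes -0.80 and -0.90). LINC01589 was similar, at 5.21 and 5.72, 2.43 and 3.31 and 2.37 and 2.32 TPM. LINC01559 was low in PC9-AMG too, with a log2 fold change of -1.18. SMIM2-AS1 was at 4.11 and 5.42 TPM in PC9, at 3.02 and 3.17 in PC9-BrM4 and at 2.01 and 1.89 in PC9-AMG, with no overlap between lines. The highest adjusted p of PC9-AMG against PC9 among the 8 leading falls was that of MYO16-AS1 (7.4e-04 by limma).

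Of the rises in PC9-AMG, LINC00221 was at 0.186 and 0.17 TPM in PC9, at 0 and 0.0722 in PC9-BrM4 and at 3.03 and 3.28 in PC9-AMG (log2 fold change 1.82 against PC9, SE 0.12, adjusted p = 2.7e-05 by limma). LINC01151 was at 0.893 and 0.851, 0 and 0.452 and 4.64 and 3.28 TPM, and SLFNL1-AS1 at 1.90 and 1.83, 2.1 and 2.56 and 8.13 and 6.55. These 3 were below 3 TPM in the other lines and above it in both PC9-AMG libraries. LINC00221 and LINC01151 reached 1 TPM in PC9-AMG alone, so that line brought them in and their calls are no support. LINC00960, one of the more abundant among the rises, was at 7.21 and 6.41 TPM in PC9, at 4.94 and 4.29 in PC9-BrM4 and at 15.0 and 14.5 in PC9-AMG. PC9-BrM4 was thus below PC9 and PC9-AMG above it. CBR3-AS1, across a carbonyl reductase gene, was at 3.20 and 3.35, 3.73 and 3.21 and 6.54 and 5.26 TPM. LINC01484 was listed at 0 in both PC9 libraries, at 0 and 3.03 TPM in PC9-BrM4 and at 3.50 and 3.17 in PC9-AMG. For LINC01484 the call against PC9 (adjusted p = 0.011 by limma) was lost without PC9-AMG replicate 1 or 2 (adjusted p = 0.069 and 0.061), and the PC9-BrM4 libraries disagree, so no order of the sublines can be given.

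The direct comparison of the sublines gave 96 members higher in PC9-AMG and 114 lower, against 28.1% and 28.0% of all tested genes. In the tested genes under 5 TPM 48.1% were called in either direction, and in the members under 5 TPM 42.4%. The 140 members with a mean of at least 5 TPM were called in 60.7%, close to 58.4% of all tested genes of that abundance. The directions differed, however. Of these members 21.4% were higher and 39.3% lower, where 27.8% and 30.5% of the tested genes of that abundance were. By class, 44 LINC genes were higher and 41 lower, 32 overlapping antisense RNAs were higher and 24 lower, but 17 head-to-head RNAs were higher and 42 lower. A change of at least 1 log2 unit was called for 545 of all 14195 tested genes higher and 313 lower, and for 15 members higher and 13 lower. The balance depended on the setting. Quantile normalization gave 75 higher and 152 lower, while leaving out PC9-BrM4 replicate 2 gave 93 higher and 83 lower. The plots of changes by abundance and of shares by class show these counts.

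**Figure D3:**
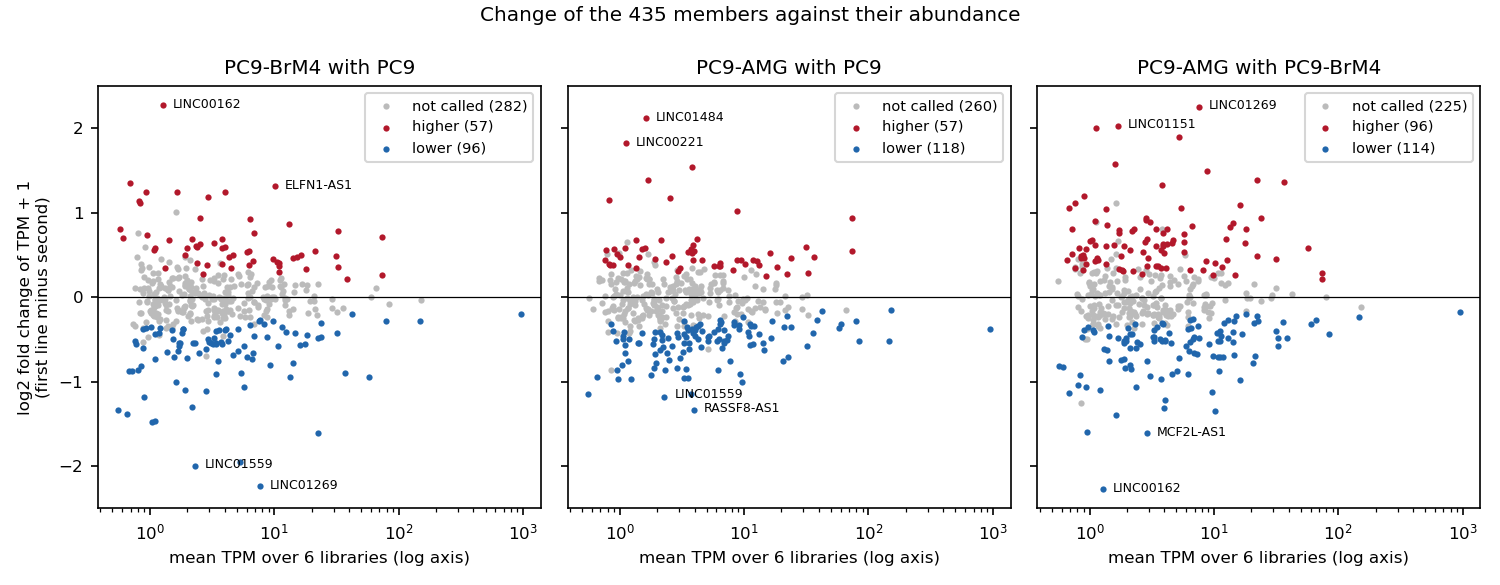
Log2 fold change of TPM + 1 (vertical axis, first line minus second) against mean TPM over the 6 libraries (horizontal log axis) for the 435 members, 1 panel per comparison. Red points were called higher, blue lower and grey not called, with counts of 57, 96 and 282 for PC9-BrM4 with PC9, 57, 118 and 260 for PC9-AMG with PC9, and 96, 114 and 225 for PC9-AMG with PC9-BrM4.

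**Figure D4:**
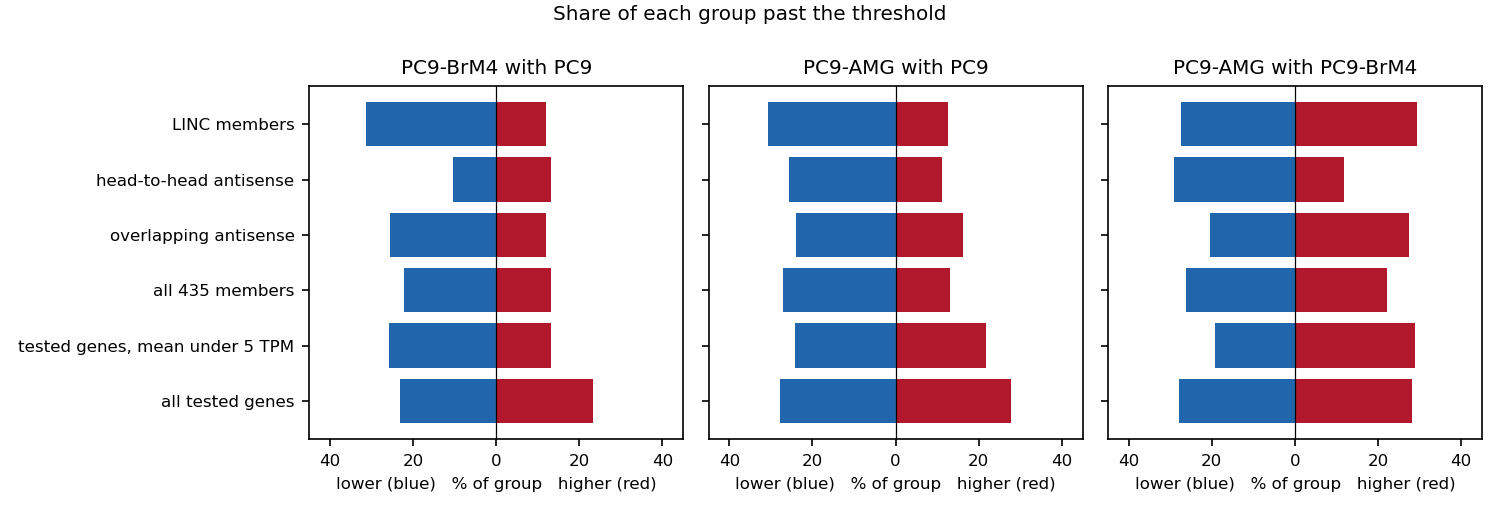
Percent of each group called higher (red, to the right of 0) and lower (blue, to the left) in each comparison. Red bars of all 435 members reach 13.1%, 13.1% and 22.1%, against 23.4%, 27.8% and 28.1% for all tested genes, while blue bars reach 22.1%, 27.1% and 26.2%, against 23.1%, 27.7% and 28.0%.

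Several members that separated the sublines have been given above. LINC01269 and LINC01234 were higher in PC9-AMG by log2 fold changes of 2.25 and 1.39 (adjusted p = 3.2e-06 and 5.9e-06 by limma), LINC00601 by 1.89, LINC00221 by 2.00, LINC01151 by 2.03 and LINC00960 by 1.49. LINC01468, which RefSeq names LNCAROD, is known as a regulator of the Wnt inhibitor gene DKK1, and lies at chr10:52450877-52470533, minus strand. It was at 37.2 and 38.1 TPM in PC9, at 18 and 21.8 in PC9-BrM4 and at 54.6 and 50.9 in PC9-AMG, so the sublines lay on either side of PC9 (log2 fold change 1.36 between them, SE 0.09, adjusted p = 1.7e-05 by limma). LINC01260, at 1.63 and 1.59, 0.281 and 0.325 and 3.38 and 2.47 TPM, had the same shape at a lower level. For LINC01260 the call of PC9-AMG against PC9 was lost without PC9-AMG replicate 1 (adjusted p = 0.051 by limma), while that between the sublines was kept.

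In the other direction MCF2L-AS1 (-1.61), SLCO4A1-AS1 (-1.39), ELFN1-AS1 (-1.35), RASSF8-AS1 (-1.31), LINC01127 (-1.21) and NNT-AS1 (-1.12) had the log2 fold changes of PC9-AMG against PC9-BrM4 given in brackets. LINC00162 was listed at 0 in PC9-AMG, and so was LINC01194, which stood at 0.724 and 0.902 TPM in PC9 and 1.67 and 2.41 in PC9-BrM4 (adjusted p = 9.1e-05 between the sublines by limma). Both reached 1 TPM in PC9-BrM4 alone, so that line brought them in and their calls are no support.

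Most members reached 1 TPM in more than 1 line: 348 did so in all 3 lines, 54 in 2 and 33 in a single line. Of the last, 12 reached it in PC9-BrM4 alone, 12 in PC9-AMG alone and 9 in PC9 alone. These 33 were taken by the rule because of the line in which they were high, so their calls and counts of calls are not given as support. Those with PC9-BrM4 alone included LINC00162 and LINC01194, SLCO4A1-AS1, PYCARD-AS1, and MNX1-AS1 at 0 and 0.138 TPM in PC9, at 1.43 and 2.05 in PC9-BrM4 and at 0.266 and 0.226 in PC9-AMG. PC9-AMG alone included LINC00221 and LINC01151. PC9 alone included WDR86-AS1, LINC00511 at 1.31 and 1.38 TPM in PC9, at 0.315 and 0.363 in PC9-BrM4 and at 0.913 and 0.853 in PC9-AMG, and LINC01116 at 1.54 and 1.49, 0 and 0 and 0 and 0.294 TPM. When the 33 were left out, the counts for the other 402 were 48 higher and 86 lower in PC9-BrM4 against PC9, 47 and 110 in PC9-AMG against PC9, and 82 and 103 in PC9-AMG against PC9-BrM4. Called changes of at least 1 log2 unit among the 402 were 4 higher and 11 lower, 5 and 4, and 12 and 8 in the same order.

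Genes whose LINC symbol hides a small coding frame were looked at as a list of 19, of which 8 were members. In PC9-BrM4 against PC9, 1 was higher and 2 lower, in PC9-AMG against PC9 0 higher and 3 lower, and between the sublines 2 higher in PC9-AMG and 1 lower, with median log2 fold changes of 0.01, -0.14 and -0.20. Those of all tested genes were -0.0016, -0.0058 and -0.0059. In each comparison 37.5% of the list was called, against 46.6%, 55.5% and 56.1% of all tested genes. The clearest was LINC00998, or SMIM30, which encodes a small membrane protein. It was at 74.7 and 76.2 TPM in PC9, at 41.3 and 36.4 in PC9-BrM4 and at 59.4 and 57.3 in PC9-AMG, with no overlap (log2 fold changes -0.94 and -0.37 against PC9, SE 0.07 each, adjusted p = 4.8e-05 and 0.0025 by limma). LINC00116, or MTLN, which encodes the mitochondrial microprotein mitoregulin, was at 15.5 and 16.3, 21.3 and 19.3 and 16.8 and 19.1 TPM. Its call in PC9-BrM4 (adjusted p = 0.015 by limma) was lost without PC9 replicate 1 or PC9-BrM4 replicate 1 (adjusted p = 0.088 and 0.08). LINC00467 was at 38.3 and 36.6 TPM in PC9, at 35.3 and 31.0 in PC9-BrM4 and at 24.5 and 25.2 in PC9-AMG, lowest in PC9-AMG. In the whole set, RefSeq lists 409 of 433 matched members as lncRNA and 16 as protein coding, and gives 104 a different symbol.

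A second list holds 80 symbols that recur in the cancer literature, of which 44 were members. In PC9-BrM4 against PC9 5 were higher and 15 lower, in PC9-AMG against PC9 5 and 21, and between the sublines 10 were higher in PC9-AMG and 16 lower. The shares called in either direction (45.5%, 59.1% and 59.1%) were near those of all tested genes (46.6%, 55.5% and 56.1%). Of the list 34.1%, 47.7% and 36.4% were lower, where 23.1%, 27.7% and 28.0% of all tested genes were. The median log2 fold changes of the list were -0.16, -0.19 and -0.09, below those of all members. Its members were also more abundant, with a median of 6.55 TPM. Of the 140 members averaging at least 5 TPM, 27.1%, 37.9% and 39.3% were lower, with median log2 fold changes of -0.03, -0.14 and -0.10. Between the sublines the list was thus no lower than members of that abundance. LINC01133, LINC00673 and LINC00963 shared a shape. LINC01133 was at 21.6 and 24.5 TPM in PC9, at 18.3 and 14.4 in PC9-BrM4 and at 32.6 and 31.6 in PC9-AMG. LINC00673 was at 18.8 and 17.5, 12.8 and 13.3 and 24.4 and 22.7 TPM, and LINC00963 at 7.92 and 6.81, 4.63 and 3.97 and 8.82 and 8.22 TPM. In each, PC9-BrM4 was lowest and PC9-AMG highest, with log2 fold changes between the sublines of 0.94, 0.80 and 0.85 (adjusted p = 3.1e-04, 7.9e-05 and 4.1e-04 by limma). LINC00963 was not called in PC9-AMG against PC9 (log2 fold change 0.19).

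LINC00665 was at 23.7 and 25.9 TPM in PC9, at 41.7 and 44.7 in PC9-BrM4 and at 32.1 and 29 in PC9-AMG, highest in PC9-BrM4 (log2 fold change 0.78 against PC9, adjusted p = 1.9e-04 by limma). FOXD2-AS1 was at 1.82 and 1.60, 3.13 and 3.61 and 1.19 and 1.69 TPM, also highest there (adjusted p = 0.0048 by limma). LINC00707 was at 16.4 and 16.3 TPM in PC9, at 16.5 and 17.5 in PC9-BrM4 and at 10.9 and 9.66 in PC9-AMG, and lowest in PC9-AMG (log2 fold change -0.63 against PC9), a call that ended when the regional median was removed. ZEB1-AS1 runs from the promoter of ZEB1, a transcription factor of epithelial-mesenchymal transition. ZEB1-AS1 was at 3.42 and 3.92 TPM in PC9, at 3.37 and 3.50 in PC9-BrM4 and at 1.87 and 1.38 in PC9-AMG, again lowest in PC9-AMG (adjusted p = 0.001 against PC9 by limma). ZEB1 itself was below 1 TPM in every library and was not tested. LINC00857 did not pass the threshold in any comparison, and ranged from 28.3 to 30.0 TPM over the 6 libraries.

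For scale, 48 well-known lncRNAs whose names fall outside the rule were tested too. In PC9-BrM4 against PC9 14 were higher and 12 lower, in PC9-AMG against PC9 14 and 14, and between the sublines 12 were higher in PC9-AMG and 18 lower. That is 54.2%, 58.3% and 62.5% called, against 46.6%, 55.5% and 56.1% of all tested genes. NEAT1, the scaffold of nuclear paraspeckles, was at 177 and 163 TPM in PC9, at 103 and 113 in PC9-BrM4 and at 145 and 163 in PC9-AMG, lowest in PC9-BrM4 (adjusted p = 4.3e-04 against PC9 by limma). HOTAIR, from the HOXC cluster, was at 5.77 and 6.55, 2.13 and 2.98 and 3.65 and 3.37 TPM, highest in PC9 (adjusted p = 7.5e-04 and 0.0042 by limma), as was HOXA-AS2 from the HOXA cluster. The call of HOTAIR in PC9-BrM4 ended when the regional median was removed.

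Antisense members were next set beside the genes they are named for, of which 242 could be tested. The median ratio of the member's TPM to that of its partner was 0.0818 in 138 head-to-head pairs and 0.132 in 86 overlapping pairs. The antisense RNA was more abundant than its partner in 4 and 18 of them. Where both genes of a head-to-head pair were called, they moved in the same direction in 12 of 14 pairs in PC9-BrM4 against PC9, in 23 of 28 in PC9-AMG against PC9 and in 27 of 32 between the sublines. In overlapping pairs the counts were 7 of 15, 13 of 20 and 16 of 23. Across all pairs, called or not, the correlation of the log2 fold changes was 0.377, 0.487 and 0.417 for head-to-head pairs and 0.140, 0.216 and 0.261 for overlapping pairs. Pairs are not independent replicates, their genes were measured in the same libraries, and the difference between the arrangements was not tested. Without members that reached 1 TPM in a single line, the counts were 10 of 12, 21 of 26 and 22 of 26 for head-to-head pairs and 6 of 14, 12 of 19 and 15 of 22 for overlapping pairs.

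**Figure D5:**
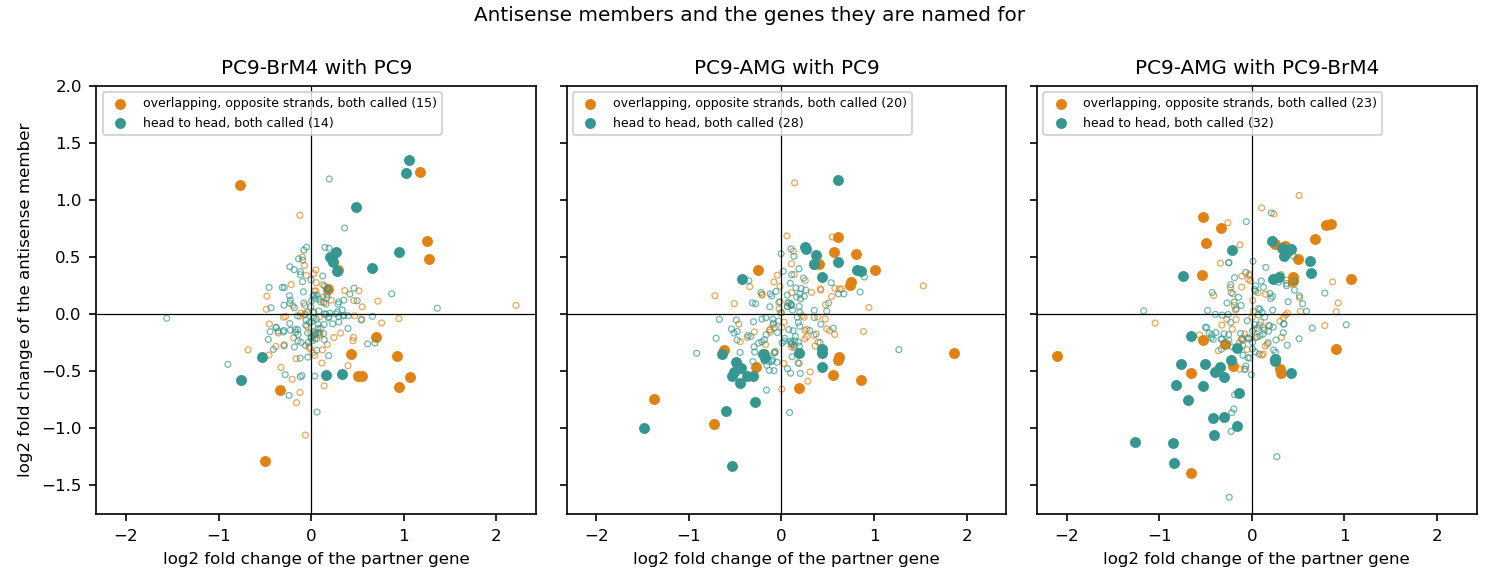
Log2 fold change of each antisense member (vertical axis) against that of the gene it is named for (horizontal axis), 1 panel per comparison, with 138 head-to-head pairs (green) and 86 overlapping pairs (orange). Filled points are pairs in which both genes were called, and the filled green points lie mostly in the lower left and upper right corners, with 12 of 14, 23 of 28 and 27 of 32 moving the same way.

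Genes that lie close together can also move together, so each pair was set against its surroundings. Removing from each library the median deviation of the 20 nearest tested genes left 9 of 12, 17 of 23 and 22 of 27 head-to-head pairs moving the same way, and 5 of 15, 8 of 17 and 9 of 19 overlapping pairs. In the 84 head-to-head pairs whose annotated bodies do not overlap, it was 9 of 10, 12 of 14 and 17 of 21 before that step and 4 of 7, 5 of 8 and 13 of 17 after it. In the 54 whose 5′ ends overlap it was 3 of 4, 11 of 14 and 10 of 11 before and 5 of 5, 12 of 15 and 9 of 10 after. Members can be set beside their surroundings too. Of 30 members whose 20 neighbours had a median log2 fold change of -0.3 or below in PC9-AMG against PC9, 2 were higher and 16 lower. Of 36 members whose neighbours had a median of 0.3 or above between the sublines, 16 were higher and 1 lower. In PC9-BrM4 against PC9, however, of 15 members with neighbours at 0.3 or above 2 were higher and 2 lower, and of 19 with neighbours at -0.3 or below 1 was higher and 9 lower. The other groups were 7 higher and 2 lower of 33 with neighbours at 0.3 or above in PC9-AMG against PC9, and 3 and 10 of 27 with neighbours at -0.3 or below between the sublines. Of all members 35.2%, 40.2% and 48.3% were called in the 3 comparisons. Whether copy number sets these regional levels was not tested.

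NNT, the partner of NNT-AS1, was at 84.2 and 77.6 TPM in PC9, at 66.9 and 71.2 in PC9-BrM4 and at 28.5 and 27.8 in PC9-AMG, so both genes were lowest in PC9-AMG with no overlap (log2 fold changes against PC9 of -1.0 for the antisense RNA and -1.49 for NNT, adjusted p = 4.4e-06 for NNT by limma). Their 20 neighbours had a median of -0.56. NIPBL-AS1 lies on the same chromosome beside NIPBL, the gene of the cohesin loader. NIPBL-AS1 was at 7.17 and 7.40 TPM in PC9, at 7.37 and 7.85 in PC9-BrM4 and at 3.83 and 3.34 in PC9-AMG, and NIPBL at 60.2 and 58.5, 48.7 and 56.0 and 41.7 and 36.2 TPM. Both were lowest in PC9-AMG, with log2 fold changes against PC9 of -0.86 and -0.60, where the neighbours had a median of -0.58. With the regional median removed the change of NIPBL came to 0.0032. RASSF8, a gene with a Ras association domain, was at 24.1 and 21.5 TPM in PC9, at 27.9 and 28.5 in PC9-BrM4 and at 16.1 and 14.7 in PC9-AMG, so it too was lowest where RASSF8-AS1 was lowest, by a smaller step (log2 fold change -0.54 against PC9, adjusted p = 8.4e-04 by limma).

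Other pairs were high together. SLC16A1, which encodes the lactate transporter MCT1, was at 78.2 and 75.9 TPM in PC9, at 110.0 and 107 in PC9-BrM4 and at 123 and 114 in PC9-AMG, above PC9 in both sublines like SLC16A1-AS1 (log2 fold changes 0.49 and 0.61 for SLC16A1, and 0.94 and 1.17 for the antisense RNA). PYCARD was at 45.8 and 46.9, 88.6 and 102 and 69.8 and 73.4 TPM, highest in PC9-BrM4 like PYCARD-AS1, but also above PC9 in PC9-AMG, where PYCARD-AS1 was not called (log2 fold change 0.18). In GENCODE 29, 90.5% of the exon bases of PYCARD-AS1 are shared with PYCARD on the other strand, and without strand the reads of the pair cannot be told apart. SLCO4A1 was at 37.0 and 39.5, 79.5 and 96.3 and 58.2 and 52.6 TPM, and MNX1, a homeobox gene, at 0.211 and 0.203, 1.54 and 1.49 and 0.433 and 0.364 TPM. Both were highest in PC9-BrM4, with adjusted p = 8.6e-05 and 3.0e-04 against PC9 by limma. PYCARD-AS1, SLCO4A1-AS1 and MNX1-AS1 reached 1 TPM in PC9-BrM4 alone, so that their high level there brought them in, and these 3 pairs are given as a description only.

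GAS6, the gene of the ligand of the AXL receptor, has antisense RNAs of both kinds. GAS6 was at 62.1 and 62.4 TPM in PC9, at 117 and 125 in PC9-BrM4 and at 82.0 and 85.9 in PC9-AMG. The head-to-head GAS6-AS2 was at 5.36 and 5.47, 9.23 and 7.51 and 4.39 and 5.73 TPM and was highest in PC9-BrM4, as GAS6 was (log2 fold changes against PC9 of 0.54 and 0.95, adjusted p = 0.013 and 1.4e-05 by limma). Its call was lost without PC9 replicate 1 or PC9-BrM4 replicate 1 (adjusted p = 0.056 and 0.081). GAS6-AS1, which overlaps the gene body, was at 1.42 and 1.68 TPM in PC9, at 0.690 and 0.566 in PC9-BrM4 and at 2.08 and 1.81 in PC9-AMG, and was lowest in PC9-BrM4 (log2 fold change -0.64, SE 0.12, adjusted p = 0.0037 by limma). The 2 antisense RNAs of 1 gene thus moved in opposite directions.

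Opposite moves were seen in further overlapping pairs. MMP24-AS1, listed by RefSeq as the protein-coding MMP24OS, was at 23.7 and 21.9 TPM in PC9, at 21.8 and 22.4 in PC9-BrM4 and at 16.9 and 18.6 in PC9-AMG, lowest in PC9-AMG. MMP24, the gene of a membrane-bound metalloprotease, was at 0.576 and 0.565, 2.11 and 1.95 and 5.10 and 4.33 TPM, highest in PC9-AMG (log2 fold changes against PC9 of -0.35 for the antisense RNA and 1.86 for MMP24, adjusted p = 0.0055 and 2.2e-05 by limma). LMO7-AS1 was listed at 0 in both PC9 libraries and stood at 1.56 and 0.872 TPM in PC9-BrM4 and at 1.41 and 1.05 in PC9-AMG. LMO7, a LIM domain gene, was at 40.7 and 39.8 TPM in PC9, at 22.2 and 24.2 in PC9-BrM4 and at 48.9 and 40.5 in PC9-AMG, so it was lowest in PC9-BrM4, where its antisense RNA was above PC9. In PC9-AMG, LMO7 overlapped PC9, so no opposite move was seen there. LMO7-AS1 reached 1 TPM in the sublines alone. Their levels brought it in, so its rise over PC9 is no support and the pair is a description only. VIM-AS1 overlaps the gene of the intermediate filament vimentin and was at 2.97 and 4.44 TPM in PC9, at 1.59 and 2.32 in PC9-BrM4 and at 2.03 and 1.54 in PC9-AMG. VIM was at 33.9 and 34.0, 27.3 and 26.1 and 13.3 and 11.6 TPM, so here both genes were highest in PC9. For VIM-AS1 the call of PC9-AMG against PC9 (adjusted p = 0.012 by limma) was lost without PC9 replicate 2 or PC9-AMG replicate 2 (adjusted p = 0.063 and 0.087), and that of PC9-BrM4 (0.023) without PC9 replicate 2 or PC9-BrM4 replicate 1 (adjusted p = 0.12 and 0.13).

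The sources used here do not say whether the authors' quantification used the strand, and without strand reads from a gene and its antisense partner cannot be told apart. The tables bear on this where exons overlap. In GENCODE 29, 81 antisense genes share at least 100 exon bases with a gene on the other strand of at least 50 TPM. Of these, 40 were themselves under 1 TPM, and the median ratio to the gene across from them was 0.00597, with the highest at 0.797. ENO1-AS1, for example, shares 126 exon bases with ENO1, a glycolytic enzyme gene at 3128 TPM, and had a mean of 0.540 TPM. In the 6 pairs where at least 50% of the antisense exon bases are shared, 3 antisense genes were under 1 TPM. PITPNA-AS1, another of the 6, shares 69.9% of its exon bases with PITPNA and averaged 38.7 TPM, against 72.4 for PITPNA.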

How the data were processed

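Polyadenylated RNA of PC9, PC9-BrM4 and PC9-AMG, 2 libraries each, was prepared with TRIzol and the TruSeq Stranded mRNA kit, per the labels' protocols. The authors deposited gene tables per library with TPM, FPKM and mean coverage, per the file headers. HISAT2 2.1.0, StringTie 1.3.4d, bcl2fastq and build hg38 are listed in the submitters' processing notes. The annotation release and the use of strand are not given in the labels or headers used. Deposited coverage divided by deposited FPKM gave the aligned bases, 2.66 to 4.39 gigabases. A table of the whole series with 6 columns of per-sample values was not used.

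TPM of lines with one symbol were summed and taken to log2(TPM + 1), the scale of every fold change, which understates the change of low genes. Genes with at least 1 TPM in at least 2 of 6 libraries (14195) entered a linear model (limma 3.58.1, R 4.3.3, trend option on) with 1 mean per line and 3 residual degrees of freedom. The method was tested on simulated data. Called means a Benjamini-Hochberg adjusted p under 0.05 over all tested genes. Counts were not used here, so no counting interval is given. Named are the 10 most abundant members, per comparison the 8 largest called rises and falls that averaged 2 TPM or more in the higher line without overlap, 2 to 4 examples of each list, and partner genes. LINC00857, LMO7-AS1, the examples past 4 of a list, and the members on opposite sides of PC9 in the sublines were chosen after their values were seen, and 1 of the last is not reported here. The members and lists were chosen with earlier results of these data known. Alternatives changed the pseudocount, filter, unit, scaling, region, overlap, block and libraries.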

Additional observations from a re-analysis of the deposited data

Results flagged for a closer look

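For the 17 members given here PC9-BrM4 and PC9-AMG were called on opposite sides of PC9, and the test of the difference between the sublines (limma, PC9-AMG against PC9-BrM4) was called for each. Calls on opposite sides make a call between the sublines likely, so it is no separate support. Of all tested genes 46.6% were called in PC9-BrM4 and 55.5% in PC9-AMG against PC9. The share of all tested genes on opposite sides was not counted, so whether 17 is many or few for members cannot be said. The values that follow are that difference in log2(TPM + 1), PC9-AMG minus PC9-BrM4. In 9 members PC9-AMG was the higher subline. They were LINC01151 (2.03), LINC01260 (1.58), LINC00960 (1.49), LINC01468 (1.36), LINC00365 (1.12), DLGAP1-AS2 (1.09), LINC01133 (0.94), STX17-AS1 (0.89) and LINC00673 (0.80). Adjusted p-values of the 9 by limma ran from 1.7e-05 for LINC00960 to 7.5e-04 for STX17-AS1. DLGAP1-AS2 was at 14.3 and 17.0 TPM in PC9, at 10.7 and 9.68 in PC9-BrM4 and at 24.2 and 21.6 in PC9-AMG, with no overlap between lines.

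In the other 8 PC9-BrM4 was the higher subline: MCF2L-AS1 (-1.61), LINC01194 (-1.59), LINC00460 (-1.06), CAPN10-AS1 (-0.90), URB1-AS1 (-0.87), NCK1-AS1 (-0.71), EXOC3-AS1 (-0.69) and PITPNA-AS1 (-0.48). The highest adjusted p of these was that of PITPNA-AS1 (0.0011 by limma). PITPNA-AS1 shares 69.9% of its exon bases with PITPNA, and without strand the reads of the pair cannot be told apart. The value of LINC01194 is a fitted one against a group listed at 0 and is no bound. LINC01194 reached 1 TPM in PC9-BrM4 alone and LINC01151 in PC9-AMG alone, so those lines brought them in. EXOC3-AS1, head to head with an exocyst subunit gene, was at 9.10 and 8.96 TPM in PC9, at 12.6 and 12.8 in PC9-BrM4 and at 7.50 and 7.49 in PC9-AMG, and CAPN10-AS1, head to head with a calpain gene, at 4.44 and 4.22, 6.25 and 6.81 and 3.10 and 2.95 TPM in the same order. In both the lines did not overlap.

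The difference between the sublines kept its call in all other settings in which the gene was tested for these 17, but some calls against PC9 did not. Members averaging under 2 TPM, LINC01151, LINC01260 and LINC01194 among them, were not tested under the filter of that mean. For LINC01151, LINC00460, URB1-AS1 and NCK1-AS1 the call of PC9-BrM4 against PC9 was lost without 1 library, with adjusted p = 0.17, 0.089 and 0.078 without PC9-BrM4 replicate 1 for the first 3 and 0.066 without PC9-BrM4 replicate 2 for NCK1-AS1. For MCF2L-AS1, EXOC3-AS1 and LINC01260 that of PC9-AMG against PC9 was lost without PC9-AMG replicate 1 (adjusted p = 0.078, 0.073 and 0.051). For LINC01133, LINC00365, STX17-AS1 and PITPNA-AS1 both were lost without 1 or another library. Without PC9-AMG replicate 1 the adjusted p of PC9-AMG against PC9 was 0.061, 0.1, 0.25 and 0.085 for these 4. Removing the regional median ended both calls of CAPN10-AS1 against PC9, that of LINC00673 in PC9-AMG, and those of LINC00365, LINC00460, LINC01133 and URB1-AS1 in PC9-BrM4. Quantile normalization ended those of LINC00365 and LINC01151 in PC9-BrM4, and that of LINC01151 also ended with FPKM, with no filter and with the replicate block. The calls of PITPNA-AS1 in PC9-BrM4 and of STX17-AS1 in PC9-AMG ended in most of the other settings.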

How the results depend on the processing

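Counts of members called depended on the libraries, the filter and the scaling. Leaving out each replicate of each line in turn gave 47 to 55 higher and 72 to 91 lower in PC9-BrM4 against PC9, 30 to 58 and 78 to 120 in PC9-AMG against PC9, and 69 to 96 and 81 to 115 between the sublines. A mean of at least 2 TPM, which keeps 275 members, gave 63 lower in PC9-BrM4 against PC9, 37 higher in PC9-AMG against PC9 and 59 higher in PC9-AMG against PC9-BrM4. The 275 members without an opposite-strand overlap gave 30 higher in PC9-AMG against PC9. These 2 settings count fewer members. Without PC9-BrM4 replicate 2, 52.8% of the calls between the sublines were higher. Quantile normalization gave 77 higher in PC9-BrM4 against PC9 and 152 lower between the sublines, and put 48.1% of the called members of PC9-BrM4 against PC9 on the higher side, against 37.3%, and 33.0% between the sublines, against 45.7%. The cause was not tested. Leaving out members that reached 1 TPM in a single line, for counts and pairs, was chosen after seeing the data.

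Of 198 named values past the threshold, 47 lost the call in at least 1 of the 18 other settings. Direction and call were kept by 148 in every setting in which the gene was tested. Genes averaging under 2 TPM, such as LINC00162 and LINC00221, were not tested under the filter of that mean. Removing the regional median ended 24 calls, no filter 11, and a left-out library between 11 and 20. The regional step also reversed 3 values: LINC00673 in PC9-AMG against PC9 (-0.11), and NIPBL in PC9-AMG against PC9 (0.0032) and against PC9-BrM4 (0.22). Among members with values given in the report, it ended calls that include those of GAS6-AS2 in PC9-BrM4 against PC9 and VIM-AS1 in PC9-AMG against PC9. It also ended those of LINC00707 in PC9-AMG against both other lines, and of LINC00511 and WDR86-AS1 between the sublines. The calls of LINC00511 and WDR86-AS1 in PC9-BrM4 against PC9 were lost in no setting. The replicate block gave 54 higher and 90 lower members, 48 and 109, and 89 and 105 in the same order of comparisons, and ended 4 named calls. Replicate numbers are not stated to pair the libraries. The deviations of same-numbered libraries correlated at -0.07, -0.03 and -0.06 over all tested genes. With 2 libraries per line this cannot decide whether same-numbered libraries were prepared together. Counts were not used here, so the limit that depth sets on scarce members is unknown beyond the aligned bases, 2.66 to 4.39 gigabases a library.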

Other observations

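Members on a chromosome can be set beside its other tested genes, and the 4 chromosomes given here were chosen after their values were seen. On chromosome 19, 6 of 20 members were higher in PC9-AMG than in PC9 and 1 was lower, where 54.0% of the 990 other tested genes were higher and 13.2% lower. On chromosome 5, which holds NNT-AS1 and NIPBL-AS1, 3 of 20 members were higher and 9 lower, where 22.9% of the 593 other tested genes were higher and 36.1% lower. On chromosome 14, 1 of 16 members was higher and 6 lower, beside 10.9% and 49.3% of 422 other genes. On chromosome 16, in PC9-AMG against PC9-BrM4, 4 of 12 were higher and 3 lower, while 11.7% of 651 other genes were higher and 55.3% lower. The difference between members and other genes was not tested.

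RefSeq has renamed 48 of the members with the ending -DT, for divergent transcript, and 44 of the 48 were head to head with the named gene by the positions in the deposited tables. GAS6-AS2 and NIPBL-AS1 are among them, while NNT-AS1 and RASSF8-AS1, whose 5′ ends overlap those of their partners, kept their names.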
